A study of Mus musculus with 5 samples.

Results

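In all, 45 genes of DNA replication and of the passage from G1 into S phase were followed across the 5 arrays of a study of B16F1 cells, a mouse melanoma line. They were listed by symbol and matched to array probes through the RefSeq accession of each probe, and where a gene had several probes, the one brightest on average was used. All 45 were found among the 22907 genes the arrays could name. Per the labels, 1 array each was run on wild-type cells with vehicle, wild-type cells with TGF-β1 at 10 ng/ml, and wild-type cells with TGF-β1 at 10 ng/ml plus CCG1423 at 10 µM. The other 2 arrays were run on clones 1 and 2 of cells labelled Tmsb4x KO, both with TGF-β1 at 10 ng/ml. Every array except vehicle had TGF-β1. The labels give 2 days for the arrays with TGF-β1 and no time for the vehicle array, so a match in time is not stated. The treatment field of the CCG1423 array lists only CCG1423, but its title and its description list TGF-β1 as well, and it was taken to have had both. The title and labels speak of a knockout (KO), the design text of a knockdown, and neither says which part of the gene was edited. CCG1423 is a small-molecule inhibitor of signalling by MRTFs, actin-regulated coactivators of the transcription factor SRF, and Tmsb4x encodes the actin monomer-binding peptide thymosin β4.

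Replication begins in G1, when the origin recognition complex, Cdc6 and Cdt1 load the ring of Mcm2 to Mcm7 onto DNA. In S phase Cdc45 and the GINS complex turn that ring into an active helicase, and polymerases, the Pcna clamp and enzymes that join Okazaki fragments copy both strands. Many of these genes are activated by E2F factors once cyclin D and cyclin E kinases have phosphorylated the RB proteins. TGF-β is known to restrain that step in epithelial cells and melanocytes, and many melanoma lines have lost part of this response.

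Each value below is a normalised log2 level: the log2 of the array's processed signal minus the 75th percentile of all probes on that array, so that 0 marks the 75th percentile and a difference of 1 is 2-fold. Levels are compared between arrays for 1 gene, never between genes. Of the 45 genes, 44 were well above background on all 5 arrays. The exception was Ccne2, a cyclin E, which was not well above background on the CCG1423 and clone 2 arrays. Each wild-type condition had 1 array and so no replicate, and the difference between the 2 clones is the only spread within a group. Among the 44 genes that difference had a median size of 0.34 on the log2 scale and was largest for Ccnd1, at 0.96.

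On each array 48.2% to 53.8% of probes exceeded background, no spot was saturated, and by the file headers a single slide, scanned once, held all 5 arrays. Tmsb4x RNA was well above background on every array, with levels of 5.05 (vehicle), 7.12 (TGF-β1 alone) and 6.79 (with CCG1423 added) in wild-type cells, and of 5.44 and 4.28 in clones 1 and 2. Both clones lay below the wild-type TGF-β1 array (limma log2 difference -2.26, SE 0.44, adjusted p = 0.0857, not called), but clone 1 lay above wild-type cells with vehicle. These levels alone do not show a loss of the transcript, and a probe outside the edited part would not test the labels. All 8 melanocyte markers were well above background on all 5 arrays, and their summed signal, relative to the 75th percentile, was lowest with CCG1423 (1780) and lay between 2310 and 2730 on the other arrays. Against TGF-β1 alone, all 8 were lower with CCG1423 (median log2 difference -0.55), and 3 at least 2-fold: Mlana (-1.65), Mitf (-1.23) and Mc1r (-1.15). Of 7 immune markers 3 were above background, Cd68, Cd3e and Csf1r, with a summed signal of 13.4 with CCG1423 against 6.0 to 8.06 elsewhere. Against TGF-β1 alone, Cd68 was higher with CCG1423 by 1.5 on the log2 scale, Csf1r by 0.56 and Cd3e by 0.2. Ptprc, Adgre1, Cd79a and Lyz2 were above background on no array. Of 6 fibroblast markers 2 were above background on any array, with sums between 0.301 and 3.74, and Pdgfra, Dcn, Col3a1 and Thy1 on none. Of 6 epithelial markers 2 were (sums 0.195 to 0.456; Epcam, Cdh1, Krt8 and Krt18 on none), and of 4 endothelial markers 1 was (0.109 to 0.146; Cdh5, Kdr and Tek on none). Whether the differences in melanocyte and immune markers with CCG1423 bear on the replication genes was not tested.

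The array with CCG1423 and TGF-β1 stood below TGF-β1 alone for nearly the whole list. There 24 of 45 genes were at least 2-fold lower, against 6.98% of 14057 genes measured, and 0 were at least 2-fold higher, against 6.01%. Counting any difference, 43 of 45 were lower, against 53.7% of all genes. The list was chosen with earlier results of these data known, so contrasts with all genes, here and below, are not independent tests. The median log2 difference was -1.04 for the list (quartiles -1.34 and -0.65) and -0.05 for all genes, and -1.02 for the list with Ccne2 set at its bound. The values ran from -1.78 for Exo1 to 0.24 for Gins3. Of the 44 genes above background on all arrays, 37 differed by more than their own clones did, and 24 by more than the largest clone difference. The same was not counted over all genes, so these counts do not set the list apart. Fewer cells in S phase and less RNA of these genes per cell cannot be told apart in RNA from whole cultures.

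TGF-β1 alone went with small differences from vehicle. One gene of 45, Ccnd1, was at least 2-fold lower with TGF-β1, against 3.27% of 14145 genes, and 0 were at least 2-fold higher, against 4.95%. By any amount 40 of 45 were lower, against 57.2% of all genes, with a median of -0.24 (all genes -0.05). Of 44 genes, 20 differed by more than their own clones did, a count again not made over all genes. Set against vehicle, CCG1423 with TGF-β1 had 29 of 45 genes at least 2-fold lower (8.06% of 13842 genes), 0 at least 2-fold higher (7.56%) and 44 lower by any amount (53.6%). The median there was -1.25 for the list, -1.21 with Ccne2 at its bound, and -0.05 for all genes. These comparisons share arrays, so their values are set side by side and are not independent.

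Over the 44 genes measured on all arrays, the level was lowest with CCG1423 for 34, against 34% of 12058 genes, and highest with vehicle for 32, against 23.2%. Vehicle had a median level over the 45 genes of 4.13, TGF-β1 alone of 3.86 and CCG1423 with TGF-β1 of 3.02, and clones 1 and 2 had 3.56 and 3.46. Both clones lay below TGF-β1 and above CCG1423 for 25 of the 44 genes, against 10.3% of all genes. That count uses the same TGF-β1 and CCG1423 arrays as the counts above and is not independent of them.

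**Figure D1:**
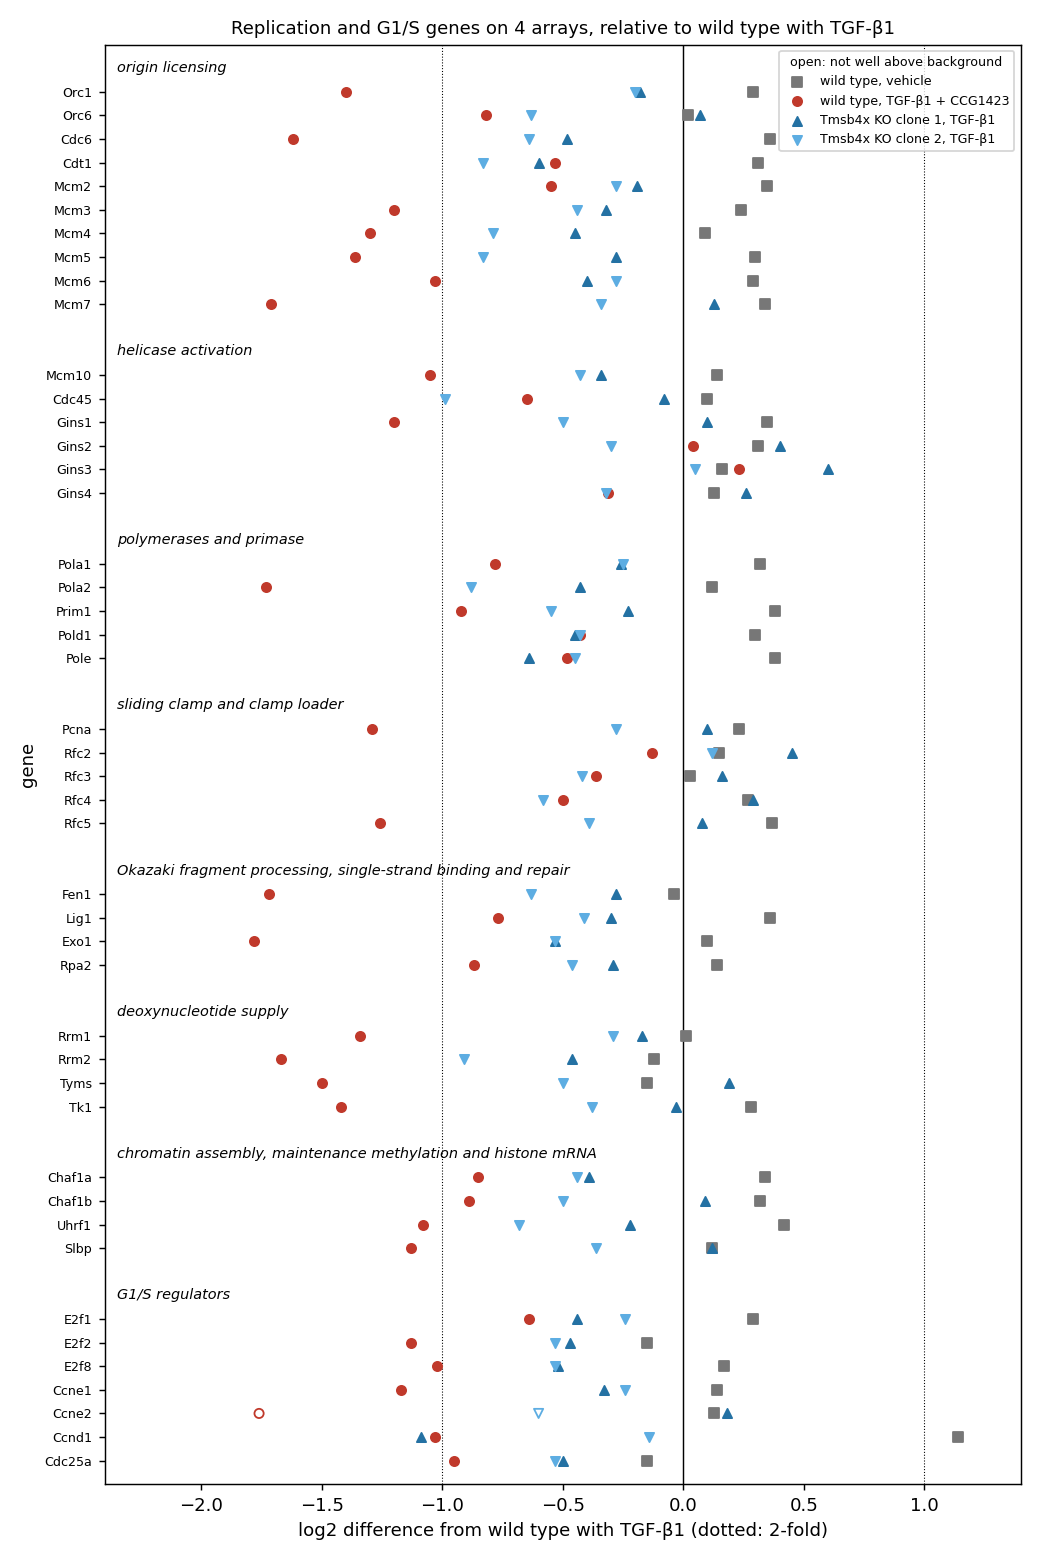
Log2 difference of each of the 45 genes from wild-type cells with TGF-β1 (x axis), by role, on the other 4 arrays, so that a vehicle point right of 0 means a level lower with TGF-β1; dotted lines mark 2-fold and open symbols a signal not well above background. CCG1423 points lie left of 0 for 43 of 45 genes and past the 2-fold line for 24 measured on both sides, and both clones lie between CCG1423 and 0 for 25 of 44.

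**Figure D2:**
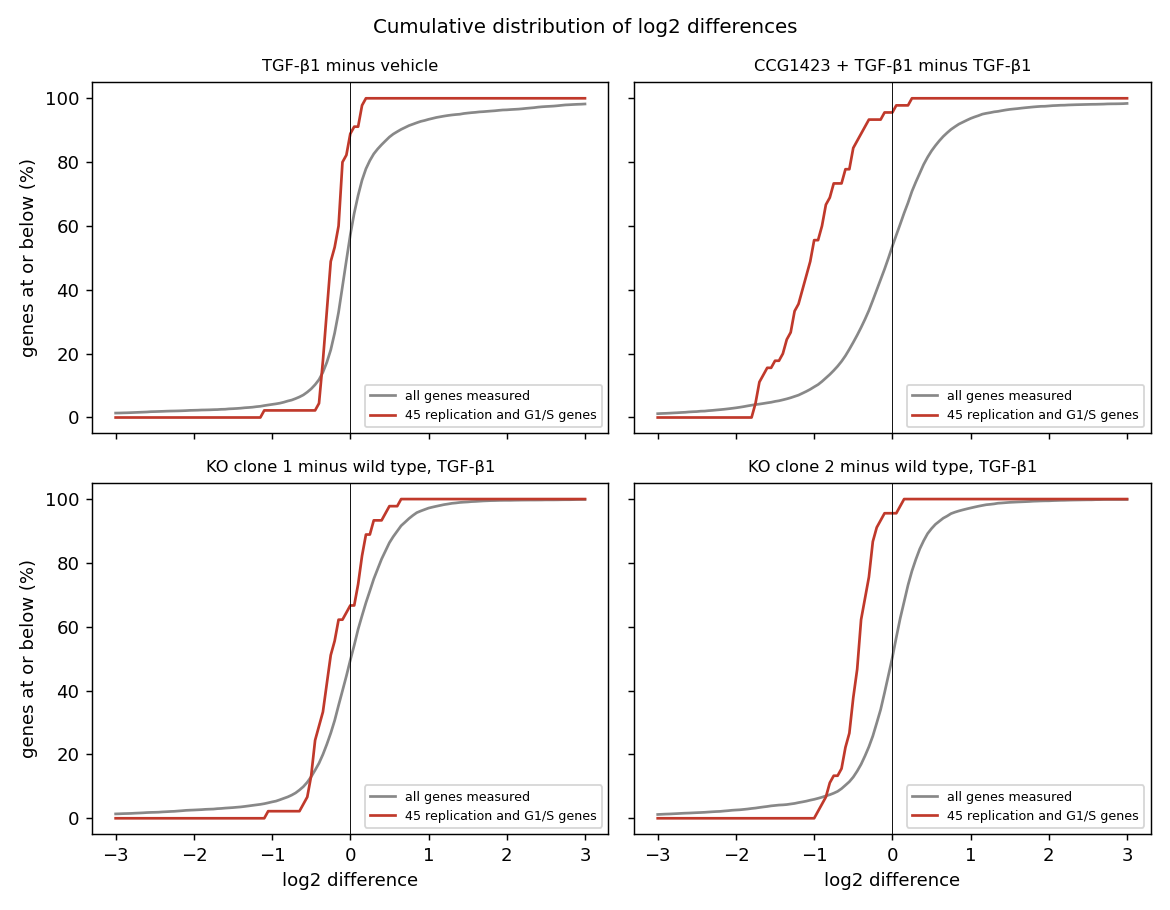
Percent of genes (y axis) at or below each log2 difference (x axis) in 4 comparisons, for all genes measured (grey) and for the 45 replication and G1/S genes (red). The red curve lies far left of the grey one with CCG1423 (medians -1.04 and -0.05) and by less with TGF-β1 (-0.24 and -0.05).

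Promoters are printed for 7 members: the 6 with an entry that stood furthest below TGF-β1 with CCG1423 (Fen1, Pola2, Mcm7, Rrm2, Cdc6 and Tyms, of which Pola2 does not keep its 2-fold difference with normexp) and the one that stood highest (Gins3, chosen after its values were seen). They come from the RefSeq promoter table of assembly GRCm38.p6, which covers 250 bases before to 50 bases after a gene's start, and are written 5′ to 3′ on the gene's strand. Capitals mark matches to 4 E2F-like letter strings, TTTCGCGC, TTTGGCGC, TTTCCCGC and TTTGGCGG, searched on both strands, where matches on opposite strands may overlap. The Pola2 promoter is chr19:5964157-5964456 on the minus strand, Mcm7 is chr5:138171834-138172133 on the minus strand (the first of 2 listed), and Cdc6 is chr11:98907901-98908200 on the plus strand. Fen1 is chr19:10204344-10204643 (the first of 2 listed) and Tyms is chr5:30073576-30073875, both on the minus strand. Rrm2 is chr12:24708004-24708303 and Gins3 is chr8:95633309-95633608, both on the plus strand.
Pola2: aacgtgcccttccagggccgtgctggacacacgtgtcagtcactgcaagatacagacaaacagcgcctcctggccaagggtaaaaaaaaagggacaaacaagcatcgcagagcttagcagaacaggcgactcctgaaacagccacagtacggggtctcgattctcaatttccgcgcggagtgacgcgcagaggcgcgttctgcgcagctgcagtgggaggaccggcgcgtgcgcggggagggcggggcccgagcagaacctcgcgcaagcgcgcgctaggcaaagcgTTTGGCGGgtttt
Mcm7: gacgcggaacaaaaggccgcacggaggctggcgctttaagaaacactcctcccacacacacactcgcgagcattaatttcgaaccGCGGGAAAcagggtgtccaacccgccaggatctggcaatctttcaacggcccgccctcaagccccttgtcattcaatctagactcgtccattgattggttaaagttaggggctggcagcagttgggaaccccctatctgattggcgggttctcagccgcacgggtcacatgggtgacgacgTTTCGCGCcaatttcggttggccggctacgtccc
Cdc6: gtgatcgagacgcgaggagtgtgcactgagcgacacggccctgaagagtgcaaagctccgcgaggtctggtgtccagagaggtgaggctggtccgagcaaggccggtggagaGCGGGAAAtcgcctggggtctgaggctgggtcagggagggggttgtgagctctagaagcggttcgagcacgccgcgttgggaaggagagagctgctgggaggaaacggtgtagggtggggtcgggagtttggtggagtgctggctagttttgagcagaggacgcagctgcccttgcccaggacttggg
Rrm2: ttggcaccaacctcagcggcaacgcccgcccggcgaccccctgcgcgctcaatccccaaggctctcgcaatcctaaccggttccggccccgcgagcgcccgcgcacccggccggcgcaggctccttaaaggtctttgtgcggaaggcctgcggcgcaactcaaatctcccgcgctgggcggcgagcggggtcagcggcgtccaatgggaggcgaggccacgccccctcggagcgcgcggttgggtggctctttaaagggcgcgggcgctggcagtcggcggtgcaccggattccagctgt
Fen1: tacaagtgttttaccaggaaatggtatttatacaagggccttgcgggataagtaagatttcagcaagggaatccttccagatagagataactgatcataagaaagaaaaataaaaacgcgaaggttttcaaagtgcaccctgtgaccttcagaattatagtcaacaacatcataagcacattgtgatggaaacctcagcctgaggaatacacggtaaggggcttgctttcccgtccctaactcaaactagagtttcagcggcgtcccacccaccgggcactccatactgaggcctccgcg
Tyms: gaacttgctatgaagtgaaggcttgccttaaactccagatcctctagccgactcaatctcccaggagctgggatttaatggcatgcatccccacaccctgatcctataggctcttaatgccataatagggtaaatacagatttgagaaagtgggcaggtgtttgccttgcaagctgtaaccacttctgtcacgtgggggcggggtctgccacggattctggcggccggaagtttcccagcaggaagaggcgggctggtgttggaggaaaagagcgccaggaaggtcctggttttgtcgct
Gins3: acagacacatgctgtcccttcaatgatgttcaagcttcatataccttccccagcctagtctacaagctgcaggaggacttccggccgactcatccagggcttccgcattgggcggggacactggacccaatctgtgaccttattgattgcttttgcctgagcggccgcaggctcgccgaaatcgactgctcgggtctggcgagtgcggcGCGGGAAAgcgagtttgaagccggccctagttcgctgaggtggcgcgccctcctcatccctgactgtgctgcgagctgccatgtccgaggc
In Pola2 the match is TTTGGCGG at position 38 after the start. Mcm7 holds TTTCGCGC at position 17 and TTTCCCGC on the opposite strand at -165. Cdc6 holds TTTCCCGC on the opposite strand at -138, Gins3 holds the same string, also on the opposite strand, at -41, and Rrm2, Fen1 and Tyms hold none of the 4 strings in these windows.

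Of the 45 genes, 36 had an entry in that table, and 17 of the 36 (47.2%) held an E2F-like string in at least 1 listed promoter, against 2.7% of the 27025 genes in the table. Of 35 other replication genes with an entry 14 held one (40%), and of 19 mitosis genes 1 did (5.26%). The CCAAT box, the letters bound by NF-Y, was in 23 of the 36 (63.9%), against 41.1% of all genes and 16 of 19 mitosis genes (84.2%). TTTGAA, the letters of the cell cycle homology region found in many mitosis genes, was in 6 of the 36 (16.7%), against 20.2% of all genes and 14 of 19 mitosis genes (73.7%). The median log2 difference with CCG1423 was -1.04 for the 17 members with an E2F-like string (from -1.73 to 0.24). For the 19 members without one it was -1.06 (from -1.72 to -0.51). Only exact matches to these strings in the listed windows were counted, so a member without one may still hold an E2F site. Whether control by E2F factors bears on the differences with CCG1423 was therefore not tested.

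Genes of origin licensing were lower with CCG1423 in 10 of 10 cases, 7 of them at least 2-fold (median log2 difference -1.25). Levels are given from here on in the order vehicle, TGF-β1, TGF-β1 with CCG1423, clone 1 and clone 2. Mcm7, a subunit of the helicase ring, had levels of 5.27, 4.93, 3.22, 5.06 and 4.59, which is 3.28-fold lower with CCG1423 than with TGF-β1 and 4.15-fold lower than with vehicle. Cdc6, the ATPase that loads the ring, had levels of 1.86, 1.50, -0.12, 1.02 and 0.86 and was 3.08-fold lower with CCG1423. Both genes had their lowest level with CCG1423, but the clones lay on either side of TGF-β1 for Mcm7 and both below it for Cdc6. Orc1, the largest subunit of the origin recognition complex, had levels of 0.58, 0.29, -1.11, 0.11 and 0.09 and was 2.64-fold lower.

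The other ring subunits also stood lowest with CCG1423, to different degrees. Mcm5 had levels of 4.11, 3.81, 2.45, 3.53 and 2.98 (2.57-fold lower with CCG1423 than with TGF-β1). For Mcm4 they were 4.51, 4.42, 3.12, 3.97 and 3.63 (2.46-fold). For Mcm3 they were 5.50, 5.26, 4.06, 4.94 and 4.82 (2.31-fold). These 3 stood highest with vehicle and lowest with CCG1423, with both clones in between. Mcm6 had levels of 6.13, 5.84, 4.81, 5.44 and 5.56 (2.05-fold), just past the 2-fold line and just short of it with quantile normalization (-0.99). Mcm2 was lower by 0.55 on the log2 scale and Orc6, the smallest origin recognition subunit, fell short of 2-fold too, with a difference of -0.82. Cdt1, the partner of Cdc6 in loading, differed least among these genes with CCG1423, with levels of 4.77, 4.46, 3.93, 3.86 and 3.63. Here both clones lay below the CCG1423 array, 1.51-fold and 1.77-fold below wild-type cells with TGF-β1.

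Genes of helicase activation were more mixed, with 2 of 6 at least 2-fold lower with CCG1423 and a median of -0.48. Mcm10, which joins the helicase as it is activated, had levels of 3.46, 3.32, 2.27, 2.98 and 2.89 and was 2.08-fold lower, or short of 2-fold with quantile normalization (-0.98). The 4 subunits of the GINS complex, which act in a single complex, did not move together. Gins1 had levels of 2.14, 1.79, 0.59, 1.89 and 1.29 (2.28-fold lower with CCG1423 than with TGF-β1). Gins2 had levels of 1.67, 1.36, 1.40, 1.76 and 1.06, and Gins3 of 4.82, 4.66, 4.89, 5.26 and 4.71. Those were the only 2 of the 45 genes above their TGF-β1 level with CCG1423, by 0.04 and 0.24 on the log2 scale, less than the 0.70 and 0.55 by which their clones differed in size. Gins4 differed by -0.30. A second probe was on the array for Gins1, Gins2 and Gins4, and with it the differences were -0.91, -0.05 and -0.56. Cdc45, which completes the helicase, was lower by 0.65 with CCG1423, and its clones differed the most in the lower direction, with levels of 0.25 in clone 1 and -0.66 in clone 2.

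All 5 polymerase and primase genes were lower with CCG1423, with a median of -0.78, but 1, Pola2, reached 2-fold. Pola2, the regulatory subunit of polymerase α, which starts each new strand, had levels of -1.62, -1.74, -3.47, -2.17 and -2.62 and was 3.33-fold lower with CCG1423. With normexp background correction, its log2 difference from TGF-β1 shrank from -1.73 to -0.49, and that from vehicle from -1.85 to -0.54, so the 2-fold call rests on the background correction. The CCG1423 array held its lowest level of the 5, and both clones lay between it and TGF-β1. Prim1, the catalytic primase, had levels of 4.24, 3.86, 2.94, 3.63 and 3.31 and at 1.89-fold lower fell short of 2-fold, which it passed with normexp (-1.02) and with the deposited value table (-1.05). Pola1, the catalytic subunit of polymerase α, had levels of 2.91, 2.59, 1.81, 2.33 and 2.34, a difference of -0.78 from TGF-β1 and of -1.10 from vehicle. Pold1 and Pole, the catalytic subunits for the lagging and the leading strand, differed by -0.43 and -0.48 with CCG1423. Their clones stood about as low: -0.45 and -0.43 for Pold1, -0.64 and -0.45 for Pole.

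Pcna, the sliding clamp that holds polymerases on DNA, had levels of 6.07, 5.84, 4.55, 5.94 and 5.56 and was 2.45-fold lower with CCG1423. Rfc5, a small subunit of the clamp loader, had levels of 4.65, 4.28, 3.02, 4.36 and 3.89 (2.40-fold lower). For both genes clone 1 lay slightly above TGF-β1 and clone 2 below it. The other loader subunits differed less with CCG1423: Rfc4 by -0.51, Rfc3 by -0.36 and Rfc2 by -0.13. Rfc2 had levels of 4.13, 3.98, 3.85, 4.43 and 4.10, with both clones above TGF-β1.

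Among genes of Okazaki fragment processing, single-strand binding and repair, 4 of 4 were lower with CCG1423 and 2 at least 2-fold, with a median of -1.30. Exo1, an exonuclease of mismatch repair and end resection, had levels of 3.12, 3.02, 1.24, 2.49 and 2.49 and stood furthest below TGF-β1 of the genes above background, 3.44-fold. Fen1, the nuclease that trims the flap of each fragment, had levels of 5.30, 5.34, 3.62, 5.06 and 4.71 (3.29-fold lower). Both had their lowest level with CCG1423 and differed by 0.10 or less between vehicle and TGF-β1. Lig1, the ligase that seals the fragments, had levels of 4.92, 4.56, 3.79, 4.26 and 4.15 and lay 1.70-fold below TGF-β1. Rpa2, a subunit of the single-strand binding protein, had levels of 1.10, 0.96, 0.09, 0.67 and 0.50 and lay 1.83-fold below it. Against vehicle, Lig1 was 2.18-fold and Rpa2 2.01-fold lower, the latter short of 2-fold with normexp (-0.85) and with median scaling (-0.99). A second probe for Lig1 gave -0.87 against vehicle, also short of 2-fold.

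The deoxynucleotide supply genes were all at least 2-fold lower with CCG1423, 4 of 4, with a median of -1.46. Rrm2, the small subunit of ribonucleotide reductase, had levels of 6.38, 6.50, 4.83, 6.04 and 5.59 (3.19-fold lower with CCG1423 than with TGF-β1). Rrm1, its large subunit, had levels of 4.68, 4.67, 3.33, 4.50 and 4.38 (2.52-fold). Neither was lower with TGF-β1 than with vehicle by more than 0.01. Tyms, which makes thymidylate, had levels of 4.51, 4.66, 3.16, 4.85 and 4.16 (2.83-fold). Tk1, which salvages thymidine, had levels of 5.16, 4.88, 3.46, 4.85 and 4.50 (2.68-fold). Tyms stood highest in clone 1 and, like Rrm2, lay above vehicle with TGF-β1, by 0.15 and 0.13.

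Of the genes that rebuild chromatin behind the fork, 4 of 4 were lower with CCG1423 (median -0.98) and 2 at least 2-fold. Uhrf1, which brings the maintenance methyltransferase to newly copied DNA, had levels of 4.91, 4.49, 3.41, 4.27 and 3.81 (2.11-fold lower). Slbp, which binds the stem-loop of histone mRNA, had levels of 0.60, 0.48, -0.65, 0.60 and 0.12 (2.19-fold lower). The CCG1423 array was lowest for both, and clone 1 equalled vehicle for Slbp to 2 decimals. A second probe for Slbp gave -0.91 in place of -1.13, on the other side of 2-fold, as did the second probe of Gins1. Slbp also fell short of 2-fold with normexp (-0.74), and Uhrf1 with quantile normalization (-0.97). Chaf1a and Chaf1b, subunits of the histone chaperone CAF-1, had levels of 3.21, 2.87, 2.02, 2.48 and 2.43 and of 5.38, 5.06, 4.17, 5.15 and 4.56. They lay 1.80-fold and 1.85-fold below TGF-β1, and 2.28-fold and 2.31-fold below vehicle.

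The G1/S regulators were lower with CCG1423 in 7 of 7 cases, 4 of them at least 2-fold, with a median of -1.02 that did not move with Ccne2 at its bound. Ccnd1, cyclin D1, the partner of the early G1 kinases, had levels of 4.90, 3.76, 2.73, 2.67 and 3.62. It was the only gene of the list at least 2-fold lower with TGF-β1 (2.21-fold), it was 2.03-fold lower again with CCG1423 (short of 2-fold with quantile normalization, at -0.95), and the 2 together left it 4.50-fold below vehicle. Clone 1 lay 2.13-fold below wild-type cells with TGF-β1, on a level with CCG1423, while clone 2 lay 1.10-fold below. Ccne1, cyclin E1, which drives entry into S phase, had levels of 4.70, 4.56, 3.39, 4.23 and 4.32 (2.24-fold lower with CCG1423). Its relative Ccne2 had levels of -3.56, -3.69, -5.45, -3.51 and -4.29, the third and the fifth not well above background, so with CCG1423 it can only be given as at least 1.17-fold lower than with TGF-β1.

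The E2F genes and Cdc25a completed this group. E2f2, an activating E2F, had levels of 2.42, 2.57, 1.44, 2.10 and 2.04 (2.19-fold lower with CCG1423 than with TGF-β1). E2f8, an atypical E2F that represses E2F targets, had levels of 1.80, 1.63, 0.61, 1.11 and 1.10 (2.02-fold). Both lay near the line: E2f2 fell short of it with normexp (-0.99), and E2f8 with normexp (-0.96), quantile normalization (-0.98) and median scaling (-0.99). E2f1, another activator, was 1.56-fold lower. Activating and repressing members thus lay on the same side, and both clones were below TGF-β1 for all 3. Cdc25a, the phosphatase that activates cyclin-dependent kinases, had levels of 3.84, 3.99, 3.04, 3.49 and 3.46 and at 1.93-fold lower was the gene nearest to the 2-fold line from below.

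**Figure D3:**
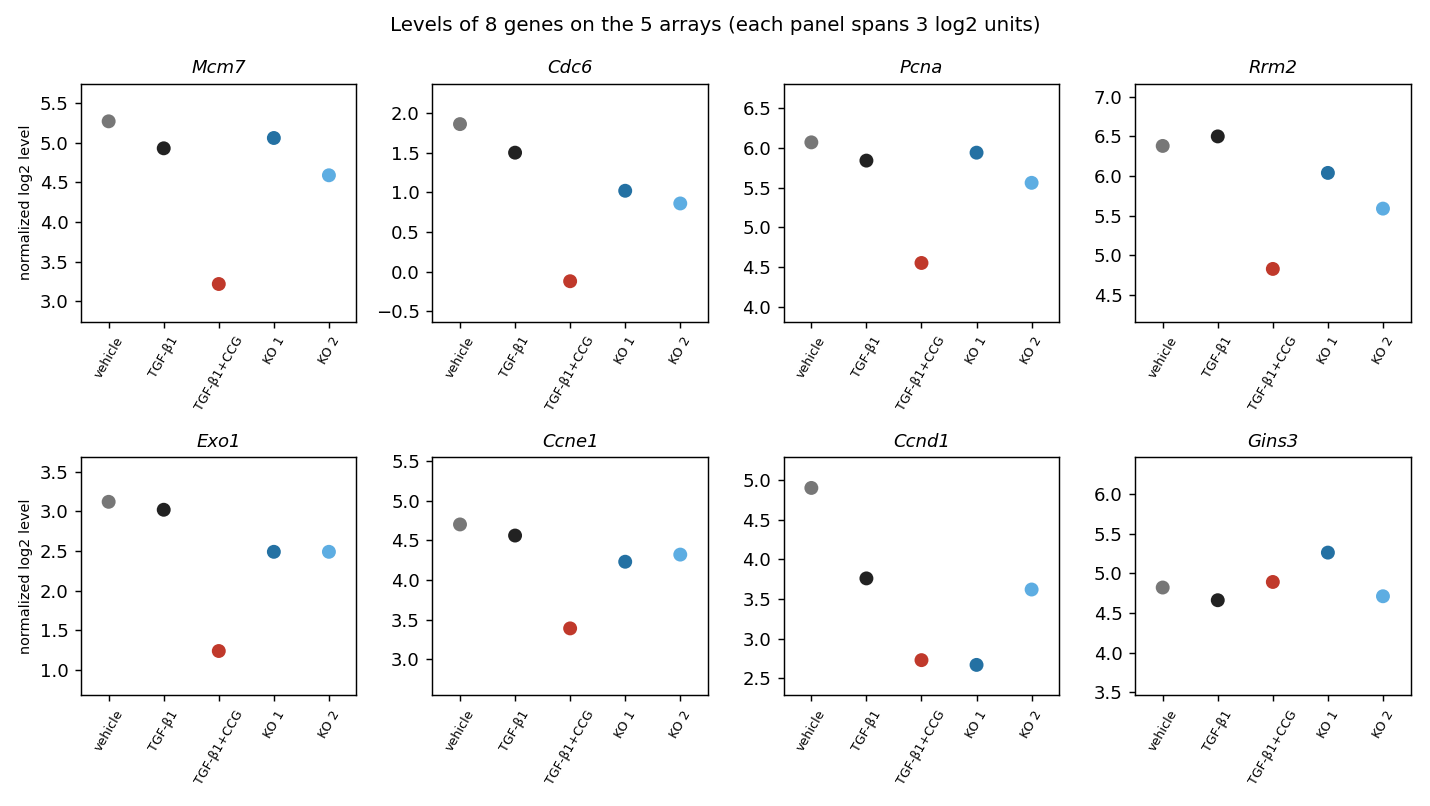
Normalised log2 level (y axis) of 8 genes on each of the 5 arrays (x axis), 1 point per array, each panel spanning 3 log2 units. Mcm7, Cdc6, Pcna, Rrm2, Exo1 and Ccne1 are lowest with CCG1423, Ccnd1 is lowest in clone 1 and with CCG1423 (2.67 and 2.73), and Gins3 is highest in clone 1 (5.26).

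The other comparison under TGF-β1 set the clones labelled Tmsb4x KO against wild-type cells. Against wild-type cells with TGF-β1, 0 of 45 genes were at least 2-fold lower in both clones (1.58% of 13729 genes) and 0 at least 2-fold higher in both (0.699%). By any amount 30 of 45 were lower in each clone, against 32.4% of all genes. Clone 1 alone had 30 lower, against 49.5%, and 15 higher, against 50.5%, and clone 2 alone had 43 lower, against 50.4%. In the mean of the clones 42 of 45 were lower, against 50.5%. The median log2 difference was -0.26 in clone 1, -0.45 in clone 2 and -0.34 for their mean, where all genes gave -0.01. The limma fit called 0 of 45 at an adjusted p under 0.05, against 0.233% of all genes (32 of 13729), and 1 of 45 at an unadjusted p under 0.05, against 5.78%. That gene was Cdt1, whose mean clone level of 3.75 ± 0.16 (SD, n = 2) stood against 4.46 in wild-type cells, a limma log2 difference of -0.71 (SE 0.29, adjusted p = 0.757). The fit had 1 residual degree of freedom and assumed that the single wild-type array varies as the clones do. The labels name 2 clones but no repeat culture of either clone or of wild-type cells. Its p-values therefore rest on how far these 2 clones differ, with that spread moderated across genes.

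After Cdt1, the largest mean differences in the clones were those of Rrm2 (-0.69, SE 0.32), Pola2 (-0.66, SE 0.47), Mcm4 (-0.62, SE 0.29) and Ccnd1 (-0.61, SE 0.39), with limma adjusted p of 0.918, 1, 0.918 and 1. On the other side stood Gins3 (0.33, SE 0.32) and Rfc2 (0.29, SE 0.30), the 2 genes above wild type in both clones. None of these differences passed the test. The 15 genes not lower in both clones were Orc6, Mcm7, Gins1, Gins2, Gins3, Gins4, Pcna, Rfc2, Rfc3, Rfc4, Rfc5, Tyms, Chaf1b, Slbp and Ccne2. The 4 GINS subunits, Pcna and the 4 small loader subunits are among them. The 5 clamp and loader members were higher in clone 1 in 5 of 5 cases (median 0.15) and lower in clone 2 in 4 of 5 (median -0.39). Rfc1, the large loader subunit and not one of the 45 genes, differed by -0.26 and -0.24, lower in both clones, and the pattern of the complex was not tested.

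The clones also differed from each other, mostly in 1 direction. Clone 2 was below clone 1 for 37 of 45 genes, against 54.2% of all genes, with a median of -0.33 (-0.32 with Ccne2 at its bound). At 2-fold the counts were 0 lower (3.34% of 13849 genes) and 0 higher (4.24%). Cdc45 (-0.91) and Rfc4 (-0.87, levels 4.36 and 3.49) were furthest lower in clone 2, and Ccnd1 (0.96) was furthest higher. With the second probes of Cdc45 and Rfc4 the differences were -1.17 and -1.05, past 2-fold. The second Cdc45 probe also put clone 1 above wild-type cells with TGF-β1, by 0.19 in place of -0.08. Clone 2 also had the lower Tmsb4x level and the smallest share of probes above background, and whether either bears on this was not tested.

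Other genes of the cell cycle were set beside the list, in lists also chosen with earlier results known. With CCG1423 against TGF-β1, 42 other replication genes had a median of -0.55, 10 at least 2-fold lower and 1 higher. Dna2, a nuclease of Okazaki fragments, was lower by 1.46, Dscc1, of an alternative clamp loader, by 1.43, and Nasp, a histone chaperone, by 1.40. On the other side Pold4, the smallest subunit of polymerase δ, was 2.54-fold higher, and Pold2, its second subunit, 2.59-fold lower. Of 17 measured RB-E2F and G1 cyclin-kinase genes, 4 were at least 2-fold lower and 0 higher (median -0.36). These were E2f7, the partner of E2f8 (2.99-fold), the pocket protein Rbl1 and the ubiquitin ligase subunit Skp2 (both 2.21-fold) and the E2F partner Tfdp1 (2.17-fold). Rb1, the retinoblastoma protein, lay 1.87-fold above TGF-β1.

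Mitosis genes were lower in 23 of 24 cases with CCG1423 (median -0.69), but 2 reached 2-fold, the spindle motor Kif11 (2.29-fold) and the kinase Plk1 (2.24-fold). For TGF-β1 against vehicle, the same mitosis genes had a median of 0.00 with 11 lower and 13 higher, where the other replication genes had -0.17 with 35 of 42 lower. In that comparison 2 RB-E2F and G1 genes were at least 2-fold lower: Myc, a driver of G1 progression (2.10-fold), and Cdk6, a cyclin D kinase, at least 3.62-fold and above background with vehicle alone. Of 7 inhibitors of cyclin-dependent kinases 5 were measured; none was at least 2-fold apart with CCG1423 (median -0.24), and Cdkn1a, the p53-induced inhibitor p21, differed by -0.46. Relative to wild-type cells with TGF-β1, Cdkn1a was higher by 0.64 in clone 1 and 1.18 in clone 2 (limma adjusted p = 0.593). In clone 1 the inhibitor furthest above was Cdkn1c, at 1.14, with 0.4 in clone 2. Over the 5 measured inhibitors the mean of the clones had a median of 0.43, with 4 higher and 1 lower. None of them was at least 2-fold apart in both clones. In the mean of the clones the mitosis genes had a median of -0.36, with 22 of 24 lower. The other replication genes had -0.18, with 31 of 42 lower, where 50.5% of all genes were lower. Housekeeping genes had medians of -0.21 with CCG1423, -0.15 with TGF-β1 and 0.08 in the clones.

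**Figure D4:**
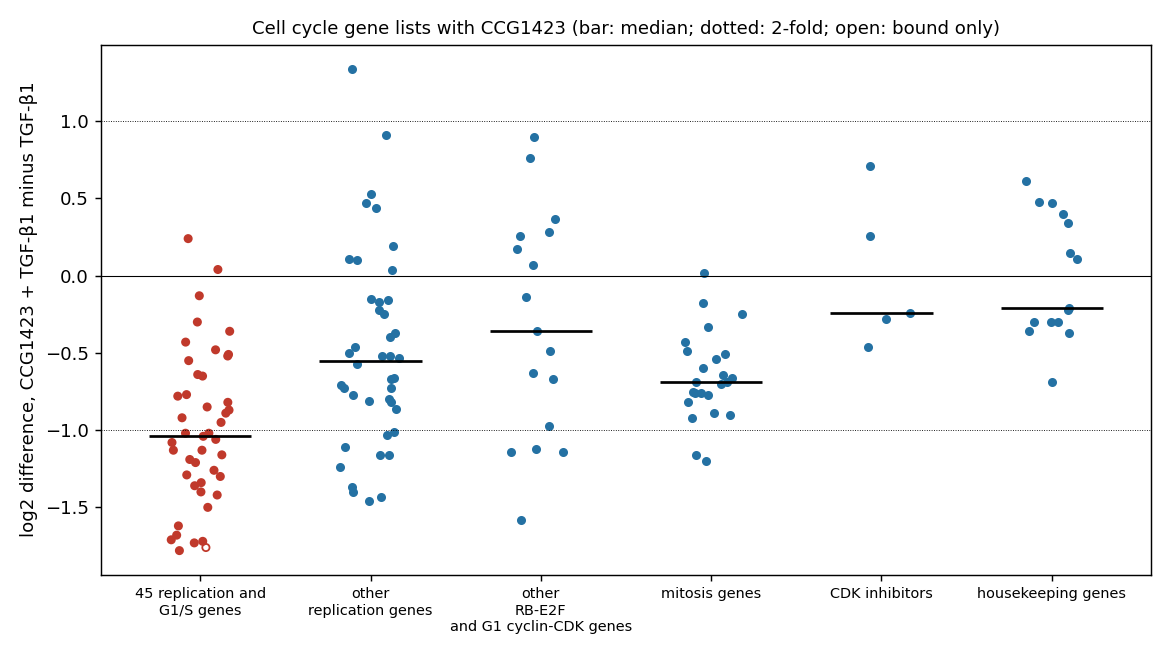
Log2 difference between CCG1423 with TGF-β1 and TGF-β1 alone (y axis) for each measured gene of 6 lists (x axis), 1 point per gene, with the list's median as a bar; the open point is Ccne2, a bound. The medians run from -1.04 for the 45 genes through -0.69 for mitosis genes and -0.55 for other replication genes to -0.21 for housekeeping genes.

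Several members had more than 1 probe, which gives a check within an array but not between cultures. For 26 genes a single probe was on the array, and for 19 there were 20 further probes. With CCG1423 against TGF-β1, 19 of the 20 gave the same sign as the probe used, their median distance from it was 0.08 on the log2 scale, and the largest was 0.33, for Lig1. The exception in sign was Gins2 (0.04 and -0.05), whose difference was close to 0 by either probe. For Mcm7 a second probe gave -1.99 beside -1.71, and for Cdc6 both gave -1.62. With CCG1423 against vehicle, 2 of the 20 lay on the other side of 2-fold: Lig1 (-0.87 beside -1.13) and E2f2 (-1.07 beside -0.98).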

How the data were processed

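Each of the 5 arrays was measured with 1 dye. Per the file headers, the deposited intensity, Agilent's processed signal, was background-subtracted and detrended within each array by Agilent Feature Extraction 12.0.3.1, and its flags (0 or 1) mark outlier, saturated and above-background spots. Control spots (3671 per array) and outlier spots (107 to 141 of 59305) were dropped, log2 signals were averaged per probe, and the array's 75th percentile was subtracted. Probes (56595 kept) were named by RefSeq accession (GRCm38.p6 table). The members and all lists were chosen with earlier results of these data known. All 45 members are named; values on every array are given for those at least 2-fold apart or at the ends of a comparison, and other lists by counts and up to 3 genes a side. Pold2, Tfdp1, Rb1, Rfc1, Cdkn1a, Cdkn1c and the second probes given were picked after their values were seen.

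A gene entered a comparison when well above background throughout at least 1 side. Where the other side was not, a fold is a bound: the bright level against the higher of the dim signal and the lowest signal well above background on that array. Medians used unfloored signals. Comparisons of single arrays count genes at 2-fold, with no test but an added limma alternative that lends them the clones' spread (closing section). The clones were tested with limma 3.58.1 (R 4.3.3; lmFit, eBayes with trend) over all genes on 5 arrays in 4 groups, with Benjamini-Hochberg adjustment at 0.05; the number of arrays limits the precision. The authors' deposited value table, the same intensity times a constant per array, served as an alternative beside normexp, quantile and median scaling, other probe rules and filters. Promoter strings were searched with Python 3.11.15. On simulated data the clone fit was required only to recover the size of added differences, and its rate of calls was held to no criterion.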

Additional observations from a re-analysis of the deposited data

How the results depend on the processing

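The median of the 45 genes kept its direction under every alternative run. For CCG1423 against TGF-β1 it ran from -0.98 to -1.17. At least 2-fold lower were from 19 members with quantile normalization (946 of 14057 genes measured) to 28 with the deposited value table (1298 of 14057). For CCG1423 against vehicle the median ran from -1.19 to -1.28. There the members at least 2-fold lower went from 27 with normexp (667 of 13842 genes) to 30 with the deposited table (1168 of 13842). For TGF-β1 against vehicle the median ran from -0.14 to -0.25 with 1 member throughout, where 135 of 12058 to 475 of 14179 genes were at least 2-fold lower. With the deposited value table the median of all genes itself was -0.18 for CCG1423 against TGF-β1, -0.20 for the clones and 0.06 for TGF-β1 against vehicle, where 34 rather than 40 members were below vehicle. It also moved the clones' median to -0.54, and relative to all genes that median stayed between -0.33 and -0.37. The limma count stayed at 0 of 45 with lowest adjusted p from 0.236 to 1, while the calls over all genes went from 32 to 85 (normexp), 51 (median scaling), 220 (deposited table), 184 (no trend), 75 (3 arrays), 1 (above background on all 5) and 0 (quantile, mean of probes). Without clone 1 or clone 2 the median was -0.45 and -0.26, and no residual degrees of freedom were left for a test. Lending the clones' spread to the single arrays, chosen after seeing the data, limma called 4 of 45 members (279 of 14057 genes) for CCG1423 against TGF-β1, 17 (671 of 13842) against vehicle and 0 (345 of 14145) for TGF-β1. Normexp was run on the median spot signal, chosen after seeing the files, and not as planned on the mean signal. No paired analysis was possible because every array carries replicate number 1 in the labels. Single arrays, 1 slide, and 2 clones of 1 line limit all of this, and dim genes such as Ccne2 give bounds.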
